A study of Mus musculus with 6 samples.

Results

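Kainate receptors and the delta receptor GluD1 were followed at the transcript level through a set of 8 genes taken by symbol from the 55450 genes of the count tables. The set comprised the kainate receptor subunits Grik1 to Grik5, the delta subunit Grid1 and the kainate receptor auxiliary proteins Neto1 and Neto2. All 8 were found and all 8 passed the filter on low counts. The 6 libraries were made from polyadenylated RNA of the cerebral cortex of adult mice, 3 of them Setd5 heterozygous and 3 wildtype. Setd5 encodes a SET-domain chromatin protein. The labels do not give the allele, the strain, the sex or the age in days. They also do not state whether each library is a different animal, so p-values reflect library-to-library spread, part of which may be technical.

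Kainate receptors are glutamate-gated cation channels assembled as tetramers. GluK1, GluK2 and GluK3 (genes Grik1 to Grik3) can form channels by themselves, whereas the high-affinity subunits GluK4 and GluK5 (Grik4 and Grik5) need one of the former as a partner. Neto1 and Neto2 are single-pass membrane proteins that bind kainate receptors and slow their kinetics. In the forebrain kainate receptors act on both sides of the synapse, where they tune transmitter release and the excitability of pyramidal cells and interneurons. GluD1 belongs to the same gene superfamily but is known mainly as a synaptic organiser, linked across the cleft to neurexins by secreted cerebellins.

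The relatedness of the subunits bears on whether a read can be given to the right gene, so the coding sequences of GENCODE M21 (GRCm38) were compared, using the longest coding transcript of each gene. Over aligned bases, Grik1, Grik2 and Grik3 were 71.2% to 72.2% identical to one another and Grik4 and Grik5 were 71.3% identical, while pairs between these subfamilies were 55.8% to 61.2% identical. Grid1 was 53.7% to 56.3% identical to the kainate subunits, over 2569 to 2742 aligned bases. Receptor subunits paired with the unrelated Neto1 or Neto2 gave 56.7% to 60.7%, over only 1581 to 1653 aligned bases. Identities with Grid1 and between the kainate subfamilies lay mostly within or below that range, so these figures do not by themselves show relatedness. Neto1 and Neto2 were 66.2% identical. The longest run of identical bases in any pair was 38, between Grik3 and Grik5. None of the 28 pairs shared a window of 50 bases. The stretch of 60 bases with the most bases shared by all 6 receptor subunits is printed. A given pair may be more alike at another place, and the longest run shared by Grik1 and Grik2, 35 bases, is not contained in it. The printed stretch codes for the third membrane segment that lines the pore. Capitals mark the 37 bases that are the same in all 6 genes.
Grik1: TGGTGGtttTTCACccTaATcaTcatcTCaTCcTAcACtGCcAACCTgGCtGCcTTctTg
Grik2: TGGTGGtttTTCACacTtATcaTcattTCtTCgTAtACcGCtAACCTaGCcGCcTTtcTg
Grik3: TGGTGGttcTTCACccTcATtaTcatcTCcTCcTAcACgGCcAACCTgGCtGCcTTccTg
Grik4: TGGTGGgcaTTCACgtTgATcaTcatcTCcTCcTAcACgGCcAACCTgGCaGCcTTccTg
Grik5: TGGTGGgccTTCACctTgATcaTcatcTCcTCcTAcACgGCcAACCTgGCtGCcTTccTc
Grid1: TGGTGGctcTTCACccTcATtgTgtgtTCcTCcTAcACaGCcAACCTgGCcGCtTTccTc
The stretch lies within 1 exon in Grik1 (chr16:87936006-87936065, minus strand), Grik2 (chr10:49240687-49240746, minus strand), Grik3 (chr4:125694012-125694071, plus strand) and Grid1 (chr14:35452311-35452370, plus strand). In Grik4 (chr9:42543866-42547568, minus strand) and Grik5 (chr7:25015916-25022442, minus strand) it is split by an intron.

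Counts of the 8 genes ran from 1174 reads for Grik4 to 16129 reads for Neto1 in a library, out of library totals of 82850628 to 92860628. Counting error at this depth was between 0.787% and 2.92% of a value. Setd5 itself was read first as a check of the labels. It stood at 69.5, 68.7 and 75.3 CPM (read counts scaled to library size, with TMM factors) in heterozygous replicates 1 to 3, and at 111, 96.9 and 107.5 CPM in wild type replicates 1 to 3. Every heterozygous library was below every wild type library, with a log2 difference of -0.56 (SE 0.07). The unadjusted p of Setd5 by edgeR was 1.8e-05 and its adjusted p 0.258. Setd5 itself therefore did not pass the test that was applied to the 8 genes. Of the 11 excitatory neuron and 14 interneuron markers none was at 0 over the libraries, and the excitatory markers summed to between 4630 and 5278 CPM. Wild type replicate 3 stood apart, with 1642 CPM of summed striatal markers against 231 to 718 CPM in the other 5 libraries, so differences are also given without it. Its title also follows another naming scheme than those of the other 5 libraries. Whether it was handled separately is not stated in the labels.

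Levels within cortex were compared between genes per kilobase of merged exon length (RPKM), a scale on which the order depended in part on the length chosen. Grik5, the gene of the high-affinity subunit GluK5, was at 24.8 RPKM on average over the 6 libraries, ranging from 21.6 to 27.1. The auxiliary proteins followed, with Neto2 at 24.0 (22.6 to 26.4) and Neto1 at 20.3 (19.0 to 21.5) RPKM. Grik2, the most abundant of the subunits that can form channels by themselves, averaged 7.14 RPKM, with a range from 6.42 to 8.35. Below it were Grid1 at 5.64 RPKM (5.02 to 7.19) and Grik3 at 5.07 RPKM (3.86 to 7.93). Grik1 and Grik4 had the lowest levels of the 8, at 2.66 (2.26 to 2.87) and 2.57 (2.39 to 2.97) RPKM.

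**Figure D1:**
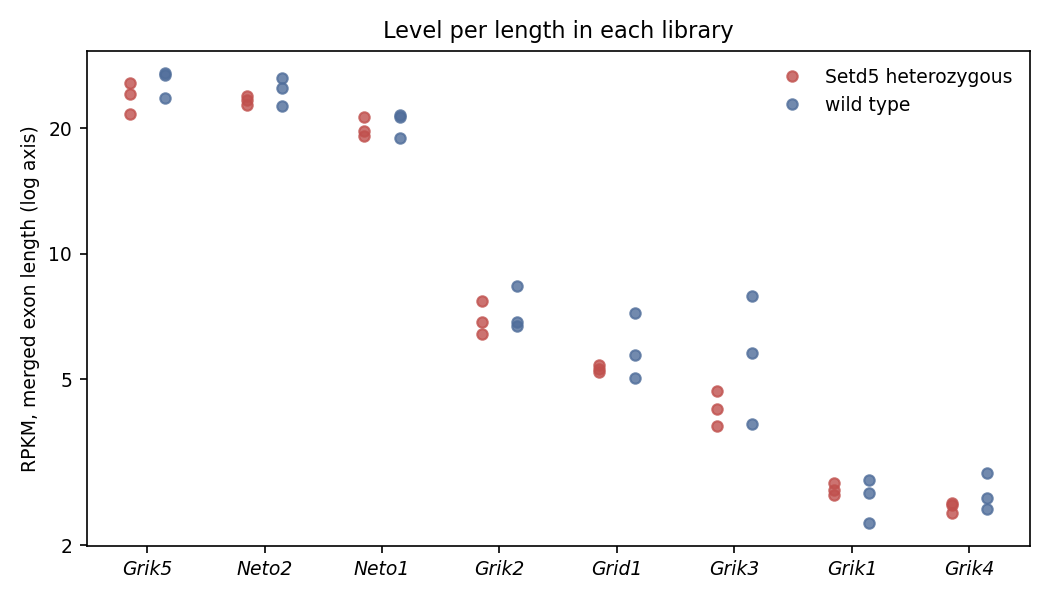
Level of each of the 8 genes in RPKM on a log axis, ordered by the mean of the 6 libraries, with 1 point per library, heterozygous in red and wild type in blue. Grik5, Neto2 and Neto1 lie at 19.0 RPKM or above in all libraries and the other 5 genes at 8.35 RPKM or below.

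Neighbours in this order were not all separated. The largest step was from Neto1 to Grik2, a ratio of 2.84, and the ranges did not overlap. Grik3 was above Grik1 by a ratio of 1.91, also without overlap, and Neto2 exceeded Neto1 in 6 of 6 libraries. Grik5 and Neto2 overlapped and stood in this order in 4 of 6 libraries, as did Grid1 and Grik3, and Grik1 and Grik4. Grik2 was above Grid1 in 6 of 6 libraries although their ranges over libraries overlapped. The order also depended on the length used. Per coding length in place of merged exon length, the ratio of Grik5 to Neto2 was 0.492, of Neto2 to Neto1 0.837 and of Grid1 to Grik3 0.673, so these 3 pairs changed places. The step below the 3 most abundant genes also closed. On that scale Neto1 had the highest level, at 106 RPKM, followed by Neto2 at 88.7 RPKM, while Grik5 at 43.6 RPKM (38.0 to 47.6) overlapped Grik2 at 34.7 RPKM (31.2 to 40.6). Merged exon length counts untranslated ends and every annotated exon. It is 13246 bases for Grik2, whose longest coding sequence has 2724 bases. The scale per coding length divides the same counts, reads in untranslated ends included, by coding length alone. It therefore raises genes with long untranslated ends, such as Neto1 with 8352 merged exon bases and 1599 coding bases.

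Between genotypes none of the 8 genes passed edgeR's quasi-likelihood test at a Benjamini-Hochberg adjusted p under 0.05. At that threshold the share called among the 27939 genes tested was 0%. Setd5 was not called either (adjusted p = 0.258 by edgeR), so a missing call does not show an unchanged level. At an unadjusted p under 0.05 the count was 0 of 8, against 5.83% of all genes tested. Heterozygous and wild type libraries overlapped for all 8 genes, whereas 11.7% of genes tested had groups that did not overlap. The fitted level was below wild type for 7 of 8 genes and above it for Grik1. Of all genes tested 50.1% lay below and 49.9% above. The median log2 difference of the 8 was -0.10, against -0.000534 over all genes tested. The count below wild type was 6 without wild type replicate 3. The log2 differences of Grik1 to Grik5 were then 0.14, 0.04, -0.18, -0.03 and -0.08. Those of Grid1, Neto1 and Neto2 were -0.02, -0.01 and -0.07. The count was 0 when the interneuron marker level, which itself did not overlap between genotypes, was a covariate. In the other alternative fits it was 7 or 8.

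**Figure D2:**
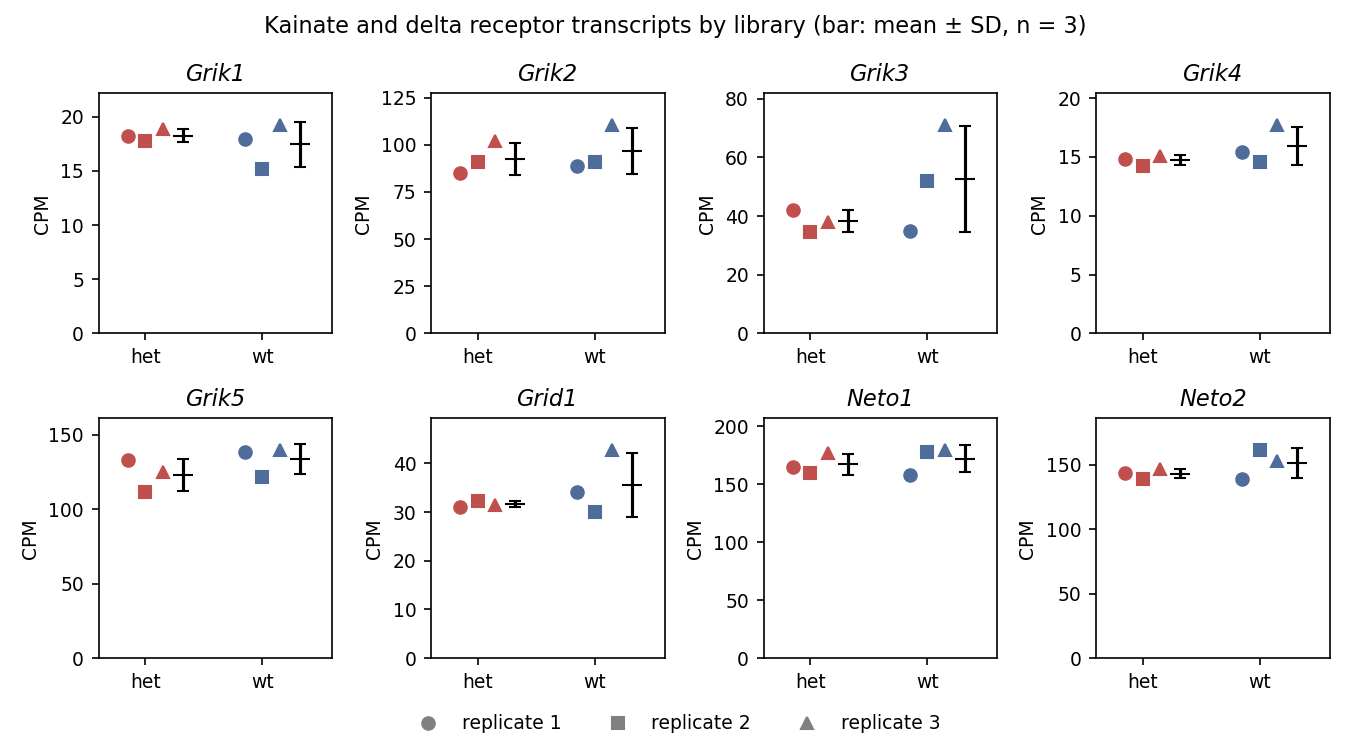
CPM of each gene by library, with heterozygous libraries in red at the left and wild type libraries in blue at the right of each panel, and a bar for the mean and SD of 3 libraries. The groups overlap in every panel, and the widest spread is that of Grik3 in wild type, from 35.0 to 71.1 CPM.

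Grik3, which encodes the low-affinity subunit GluK3, had the largest difference of the 8. The gene (ENSMUSG00000001985.9) spans 125490700 to 125714173 on the plus strand of chromosome 4. Heterozygous replicates 1 to 3 had 42.1, 34.6 and 38.1 CPM and wild type replicates 1 to 3 had 35.0, 51.9 and 71.1 CPM. Wild type replicates 2 and 3 lay above every heterozygous library, but wild type replicate 1 lay among them. The heterozygous mean was 38.3 ± 3.73 CPM and the wild type mean 52.7 ± 18.1 CPM (SD, n = 3 each). The log2 difference was -0.46 (SE 0.21), or 72.7% of the wild type level with a 95% interval from 52.7% to 100.2%. Its unadjusted p by edgeR was 0.0511 and its adjusted p 0.855. By exact permutation of the libraries, two-sided, p was 0.3. Its size rested on wild type replicates 1 and 3. The difference was -0.18 with wild type replicate 3 left out and -0.68 with wild type replicate 1 left out (adjusted p = 0.887 and 0.477 by edgeR). Over the 6 libraries its coefficient of variation was 31.0%, higher than in 99.1% of the 6323 genes tested with a mean of 20 to 100 CPM.

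Striatal markers moved with the high Grik3 library. The 10 markers of striatal projection neurons summed to 316, 438 and 718 CPM in heterozygous replicates 1 to 3 and to 231, 414 and 1642 CPM in wild type replicates 1 to 3, with none at 0. Of the 10 markers all 10 had a fitted level below wild type and 0 passed the test, against 50.1% and 0% of all genes tested. The mean log2 level of the list overlapped between genotypes. It was lowest in wild type replicate 1 (-1.55 from the wild type mean) and highest in wild type replicate 3 (1.88). The library with the most striatal signal, wild type replicate 3, was also the one with the most Grik3, but heterozygous replicate 3 had the second most striatal signal with 38.1 CPM of Grik3. With the striatal level as a covariate the log2 difference of Grik3 was -0.33 (SE 0.15, adjusted p = 0.784 by edgeR). In bulk tissue, fewer cells of a type and less RNA per cell cannot be told apart.

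The other subunits that can form channels by themselves differed little. Grik2, the gene of GluK2 and the major such subunit here, was at 85.0, 90.7 and 101.7 CPM in heterozygous and 88.9, 90.8 and 110.5 CPM in wild type libraries. The groups lay within one another's range apart from wild type replicate 3 at the top and heterozygous replicate 1 at the bottom. Its log2 difference was -0.07 (SE 0.10), with a 95% interval from 82.0% to 111% of the wild type level, and it was 0.04 without wild type replicate 3. Grik1 encodes GluK1, a subunit known from interneurons. It was at 18.2, 17.7 and 18.9 CPM in heterozygous and 17.9, 15.2 and 19.3 CPM in wild type libraries. All 3 heterozygous values fell between the lowest and the highest wild type value. The log2 difference of Grik1 was 0.07 (SE 0.10, 95% interval from 90.0% to 122% of wild type). Leaving out wild type replicate 2 gave -0.03, and leaving out replicate 3 gave 0.14.

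Both high-affinity subunits had slightly lower means in heterozygous cortex, and for neither was the difference beyond the spread. Grik5 (ENSMUSG00000003378.9, minus strand of chromosome 7, 25009849 to 25072346) was at 132.7, 111.5 and 124.8 CPM in heterozygous and 138.2, 121.7 and 139.9 CPM in wild type libraries. Heterozygous replicate 1 lay above wild type replicate 2, so the groups overlapped. Its log2 difference was -0.12 (SE 0.08), with a 95% interval from 81.1% to 105% of wild type, and -0.08 without wild type replicate 3. Grik4 was at 14.9, 14.2 and 15.1 CPM against 15.4, 14.6 and 17.7 CPM. Only wild type replicate 3 stood clear of the rest. The log2 difference of Grik4 was -0.11 (SE 0.09, 95% interval from 80.1% to 107% of wild type) and -0.03 without wild type replicate 3.

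Grid1, the gene of GluD1, spans 763272 bases on chromosome 14 (34820108 to 35583379, plus strand), the longest of the 8. It was at 31.1, 32.2 and 31.4 CPM in heterozygous libraries, a coefficient of variation of 1.92%. In wild type libraries it was at 34.0, 29.9 and 42.9 CPM, a coefficient of variation of 18.5%. The wild type values lay on both sides of the heterozygous ones. Its log2 difference was -0.17 (SE 0.12, adjusted p = 0.874 by edgeR), with a 95% interval from 74.0% to 106% of wild type. Leaving out wild type replicate 3 gave -0.02, and leaving out replicate 2 gave -0.29.

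The auxiliary proteins had the lowest coefficients of variation of the 8 over the 6 libraries, at 5.75% for Neto1 and 6.06% for Neto2. Neto1 was at 164.6, 159.6 and 177.1 CPM in heterozygous and 158.3, 177.4 and 179.8 CPM in wild type libraries, with a log2 difference of -0.04 (SE 0.07). Neto2 was at 143.5, 139.1 and 146.7 CPM against 138.6, 161.7 and 153.0 CPM, with a log2 difference of -0.08 (SE 0.07). In both genes the lowest value belonged to wild type replicate 1, so no order of the groups was seen. Without wild type replicate 3 the log2 difference was -0.01 for Neto1 and -0.07 for Neto2. The 95% intervals ran from 86.8% to 109% of wild type for Neto1 and from 84.8% to 106% for Neto2. An antisense gene, AC113599.1, overlaps 2.62% of the exon length of Neto1 and had 330 to 457 counts, and the library kit does not mark strand, so reads from this overlap could belong to either gene. Small RNA genes overlap 1.53% or less of the exon length of Grid1, Grik4 and Neto2, and no annotated exon overlaps those of the other 4 genes.

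**Figure D3:**
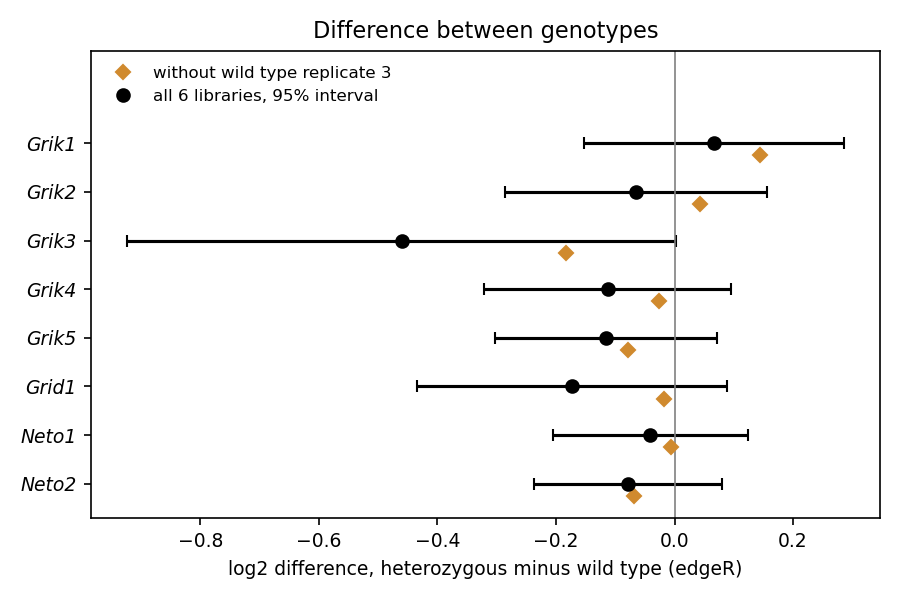
Log2 difference of each gene, heterozygous minus wild type, from edgeR with all 6 libraries (black points, bars for 95% intervals) and without wild type replicate 3 (orange diamonds). All 8 intervals include 0, and Grik3 moves from -0.46 to -0.18 when that library is left out.

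Wild type replicate 3 lay highest in most of these comparisons. It had the highest CPM of the 6 libraries for 7 of the 8 genes, the exception being Neto2, and all 8 genes stood above the wild type mean there. Heterozygous replicates 1 and 2 each had 1 of 8 genes above the wild type mean and heterozygous replicate 3 had 3. Wild type replicates 1 and 2 had 2 and 3. The mean deviation of the 8 genes from the wild type mean, in log2 CPM, was 0.18 in wild type replicate 3 and between -0.17 and -0.07 in the other 5 libraries. That mean includes wild type replicate 3, whose high values lower the deviations and counts of the other 5. Xist counts were high in wild type replicate 3 and heterozygous replicate 3 (69096 and 78747) and between 38 and 78 in the other 4. Without these 2 libraries the log2 differences of Grik3 and Grid1 were -0.18 and -0.01, and 7 of the 8 genes lay below wild type. Those of Grik1, Grik2, Grik4 and Grik5 were 0.12, -0.03, -0.04 and -0.09. Those of Neto1 and Neto2 were -0.05 and -0.09.

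**Figure D4:**
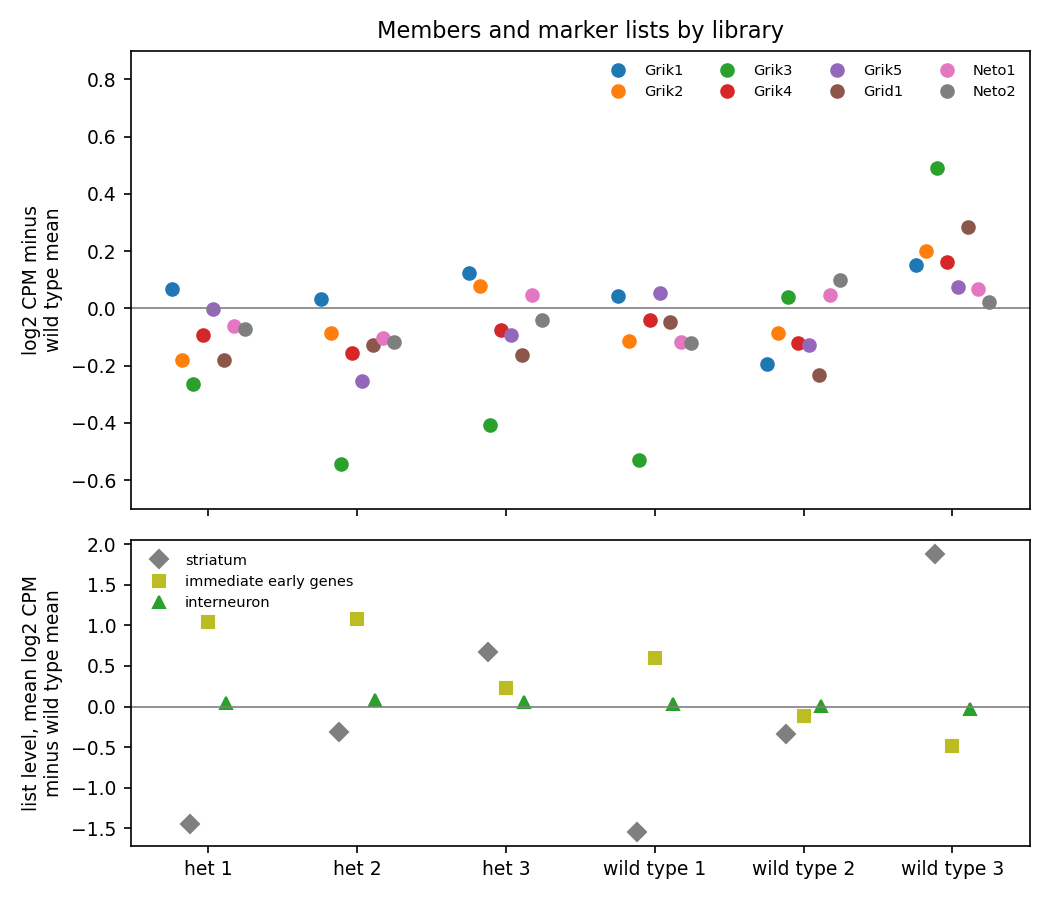
Upper panel, log2 CPM of each gene minus its wild type mean in each library. Lower panel, mean log2 CPM of the striatal, immediate early and interneuron lists minus their wild type means. In wild type replicate 3 all 8 genes lie above 0, the striatal level is 1.88 and the immediate early level is -0.49.

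Other marker lists differed between libraries as well. The 11 immediate early genes, which neurons switch on with activity, all had a fitted level above wild type, with 8 higher at an unadjusted p under 0.05 and 0 passing the test. Of all genes tested 49.9% had a higher fitted level and 2.44% were higher at that p. Their summed level was 745 to 1379 CPM in heterozygous and 474 to 981.5 CPM in wild type libraries, lowest in wild type replicate 3. Of the 14 interneuron markers 8 had a fitted level above wild type and 0 passed. Their summed level was 1265 to 1305 CPM in heterozygous and 1267 to 1273 CPM in wild type libraries, which overlap. Their mean log2 level, the measure used as the covariate, did not overlap (0.05 to 0.08 against -0.04 to 0.03). The part of these lists in the values of the 8 genes was not tested, apart from the striatal and interneuron fits.

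The composition of the kainate receptor pool was compared as the share of each gene in the summed RPKM of Grik1 to Grik5. The sum was 42.0, 37.3 and 41.4 RPKM in heterozygous and 42.6, 40.9 and 49.2 RPKM in wild type replicates 1 to 3, a difference of group means of -3.99 RPKM (two-sided exact permutation p = 0.3). Without wild type replicate 3 it was -1.51 RPKM. Grik4 and Grik5 together made up 65.2% ± 1.61 of the pool in heterozygous and 64.5% ± 3.96 in wild type cortex (SD, n = 3 each, exact permutation p = 0.8). Most of this was Grik5, at 59.1% and 58.5%. These shares depended on the length used, and per coding length Grik4 and Grik5 together made up 46.4% ± 2.07 and 45.8% ± 4.12 (SD, n = 3 each). Grik2 contributed 17.4% ± 1.83 and 16.5% ± 0.654, and Grik3 10.6% ± 0.503 and 13.1% ± 3.58. Per coding length Grik2 contributed 33.5% ± 2.88 and 31.8% ± 0.377 (SD, n = 3 each).

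Grik1 was the one member whose share of the pool did not overlap between genotypes, a comparison singled out after the values were seen. It made up 6.44%, 7.07% and 6.79% of the pool in heterozygous and 6.25%, 5.52% and 5.83% in wild type replicates 1 to 3. The difference of 0.902 percentage points had an exact permutation p of 0.1, the smallest that 3 libraries against 3 can give in a two-sided test, and an adjusted p of 0.833 over the 10 sums, shares and ratios compared. With Grik3 left out of the sum the share of Grik1 was 7.25%, 7.89% and 7.56% in heterozygous and 6.88%, 6.43% and 6.95% in wild type replicates 1 to 3, again without overlap. This share uses the same Grik1 values and the same libraries, so it is not a separate test. Neto1 made up 46.1% ± 0.74 of the summed Neto1 and Neto2 level in heterozygous and 45.5% ± 0.858 in wild type cortex (SD, n = 3 each, exact permutation p = 0.4). The ratio of the auxiliary genes to Grik1 to Grik5 was 1.08 ± 0.0479 and 1.03 ± 0.119 (SD, n = 3 each, exact permutation p = 0.5).

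Genes that work with these receptors were read from a list of 29, of which 28 were matched and tested. None passed edgeR's test, and at an unadjusted p under 0.05 there were 0 higher and 1 lower, against 2.44% and 3.38% of all genes tested. The median log2 difference was 0.01, with 15 above and 13 below wild type. The smallest p was that of C1ql3, a secreted C1q-like protein that binds kainate receptors at synapses. It was at 56.0, 62.0 and 54.3 CPM in heterozygous and 70.5, 66.0 and 61.9 CPM in wild type libraries. Heterozygous replicate 2 and wild type replicate 3 were nearly level, and the other heterozygous values lay below every wild type value. The log2 difference of C1ql3 was -0.20 (SE 0.08, adjusted p = 0.831 by edgeR).

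Of the other partners named for their small p, C1ql1, Dlg4, Prkca and Nrxn2 had lower fitted levels and C1ql2 a higher one. The whole list was split, with 15 above and 13 below wild type. C1ql2, the C1q-like protein of mossy fibre synapses, was low in cortex, at 0.478, 2.47 and 0.944 CPM in heterozygous and 0.922, 0.516 and 0.612 CPM in wild type libraries. Its log2 difference of 0.92 (SE 0.52) came with overlapping groups and leaned on heterozygous replicate 2. C1ql1 had a log2 difference of -0.18 (SE 0.10) at 6.46 ± 0.299 against 7.34 ± 0.547 CPM (SD, n = 3 each). It was the only partner whose groups did not overlap (1 of 28, against 11.7% of all genes tested). The nearest values were 6.776 CPM in heterozygous replicate 3 and 6.781 CPM in wild type replicate 2. Dlg4, which encodes the scaffold PSD-95, was at 389 ± 25.8 against 435 ± 38.2 CPM, a log2 difference of -0.16 (SE 0.08). Prkca, a protein kinase C gene, was at 137 ± 7.37 against 157 ± 19.0 CPM, a log2 difference of -0.19 (SE 0.09). Nrxn2, a neurexin, had a log2 difference of -0.14 (SE 0.09). Adarb1, the enzyme that edits the pore codon of Grik1 and Grik2 transcripts, had a log2 difference of -0.03 (SE 0.07). Editing itself cannot be read from gene counts.

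Among the 18 tested genes of the other glutamate receptor families (AMPA, NMDA and metabotropic) 0 passed the test. Fitted levels lay below wild type for 12 of them and the median log2 difference was -0.09. At an unadjusted p under 0.05 there were 2, Grm3 and Grin2c, both lower, against 3.38% of all genes tested. In 4 of the 18 the groups did not overlap, with heterozygous libraries below, against 5.85% of all genes tested. These were Grm3, a metabotropic receptor, the NMDA receptor subunits Grin2c and Grin3a, and the AMPA receptor subunit Gria3. Their log2 differences were -0.19, -0.35, -0.06 and -0.08. The difference between these families and the 8 genes was not tested.

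The spans of the 8 genes on the chromosome run from 62498 bases for Grik5 to 763272 bases for Grid1. Of the 8 genes 6 exceed 100000 bases, as do 14.8% of the 16251 tested protein-coding genes. The median log2 difference of the tested protein-coding genes above that length was -0.02, with 57.7% below wild type, against 51.7% of all tested protein-coding genes. The shortest pair, Grik5 and Neto2 at 62498 and 64337 bases, had log2 differences of -0.12 and -0.08. The part of gene span in the values of the 8 genes was not tested.

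Likeness of pattern was measured as the root mean square difference between a member's and another gene's log2 CPM deviations from their own 6-library means, over 14011 other protein-coding genes with a mean of at least 1 CPM. Neto1 and Neto2 were each other's nearest member, at 0.04, which ranked 58th and 49th among all genes for them. Grik4 and Grik5 were also each other's nearest member, at 0.08, but Grik5 ranked only 1227th for Grik4 and Grik4 430th for Grik5. Grik4 was the nearest member of Grik1, Grik2 and Grid1, ranking 2123rd, 396th and 266th among all genes for them. Its distance of 0.10 from Grik1 was close to the spread of Grik1 around its own mean, 0.11. Grik3 was the farthest from the rest, with Grid1 nearest at 0.29 and ranking 1083rd. The nearest gene of all was Hnrnpr for Grik1 (0.02), Oxsr1 for Grik2 (0.02), Slc22a4 for Grik3 (0.09), Gnao1 for Grik4 (0.01), Pcnx3 for Grik5 (0.02), Map1s for Grid1 (0.02), Tcaim for Neto1 (0.02) and Bop1 for Neto2 (0.02). With 6 libraries and this many genes, such near matches are a description of these libraries.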

How the data were processed

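The authors deposited raw counts of reads per gene, 1 table per library, not normalized. Per the submitters' processing notes reads were handled with Bowtie2 2.3.4.3 and featureCounts, beside FastQC and DESeq2, and the builds named are mm10 and GRCm38.p6, with order, settings and strand use not given in the sources used here. Per the labels' protocols, Trizol RNA was used with a TruSeq RNA v2 kit. If Bowtie2 searched the genome, reads over exon junctions would be undercounted, which bears on levels between genes more than on genotypes.

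All 55450 identifiers matched GENCODE M21. The 8 genes and all gene lists and rules for naming genes were chosen with earlier results of these data known. The named genes are the 8 members, of the 29 partner genes the 6 with the smallest unadjusted p plus Adarb1 and 1 further gene that is not reported here, and the nearest genes by pattern. Genes of the other glutamate receptor families were named after their values were seen. Marker lists beyond those named in the results (astrocyte, microglia, oligodendrocyte lineage, endothelial, meningeal fibroblast, hippocampus) had 0 genes passing the test, with medians from -0.64 (meningeal fibroblast) to 0.09 (oligodendrocyte lineage). At an unadjusted p under 0.05, 6 of 8 meningeal fibroblast and 4 of 8 endothelial markers were lower in heterozygous libraries, against 3.38% of genes tested. The mean log2 levels of the endothelial list (-0.22 to -0.16 against -0.06 to 0.05) and the microglia list (-0.20 to -0.03 against -0.03 to 0.02, less than rounding apart) did not overlap between genotypes, while the summed CPM of the microglia list did. The part of these lists in the values of the 8 genes was not tested.

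Genes were filtered with filterByExpr (minimum count 10, total 15), which left 27939, and tested with the quasi-likelihood functions of edgeR 4.0.16 (R 4.3.3) with TMM factors, no covariate, Benjamini-Hochberg over all genes tested and a threshold of 0.05. Log2 CPM used a prior count of 1. RPKM used merged exon lengths. Sums and shares were compared by exact permutation of the libraries, two-sided, for which 0.1 is the smallest p with 3 in each group. Alternatives were other scalings, filters, DESeq2 1.42.0, limma 3.58.1 (voom with quality weights), edgeR's likelihood ratio test, marker levels as covariates, coding length, and libraries left out. Replicates were numbered in accession order, which pairs nothing.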

Additional observations from a re-analysis of the deposited data

How the results depend on the processing

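None of the 8 genes passed the test in any of the 17 alternatives, with adjusted p from 0.477 (Grik3 without wild type replicate 1) upward. At an unadjusted p under 0.05 there was 1 of the 8 in 7 of these alternatives and 0 in the others. The gene was Grik3 in 6 of them, lower in 5 (upper quartile scaling, library totals, every gene of at least 1 count, likelihood ratio test, and without wild type replicate 1; log2 differences of -0.68 to -0.46) and higher with the interneuron level as a covariate. It was Grid1, lower, without wild type replicate 2. Directions were less stable than calls, reversing in 2 of 17 alternatives for Grik2 and in 1 of 17 for each other gene. With the interneuron level as a covariate, which itself did not overlap between genotypes (0.05 to 0.08 against -0.04 to 0.03), 0 genes lay below wild type, and log2 differences became 0.17 for Grik2, 0.42 for Grik3, 0.084 for Grik4, 0.0094 for Grik5, 0.10 for Grid1, 0.11 for Neto1 and 0.027 for Neto2; the cause was not tested. Leaving out 1 library moved Grik1 between -0.028 and 0.14, and Grik2 between -0.14 and 0.043. The difference in the Grik4 and Grik5 share, 0.743 percentage points, ran from -0.964 to 2.91 when 1 library was left out and was -0.548 without the 2 libraries with high Xist counts. The count of genes called over the whole table was 0 as reported, 6 with every gene of at least 1 count, 62 in DESeq2, 2 in limma-voom with quality weights, 29 in the likelihood ratio test, and 0 to 2 with 1 library left out. Over all genes tested, 1628 genes had an unadjusted p under 0.05, and 888 to 2551 had one with 1 library left out. The median of the partner genes stayed between -0.03 and 0.01. No paired analysis was possible because the labels give the genotypes no shared replicate numbers. With 3 libraries a group, the intervals of the 8 genes leave room for differences of the sizes given in them.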
